A study of Mus musculus with 18 samples.

Results

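Tumours grown in mice lacking Adra2a (KO) were compared with tumours grown in wild-type (WT) mice, with the 3 treatments of the study kept in the model and the KO minus WT difference averaged over them. All 18 libraries of the series entered, 9 from KO hosts and 9 from WT hosts. Each genotype has 3 libraries per treatment, so the groups are KO-Control, KO-Clonidine, KO-Guanabenz, WT-Control, WT-Clonidine and WT-Guanabenz. The members were taken from the genotype and title labels and not from any measured value.

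The KO hosts carry the genotype ADRA2A-/- and the WT hosts are labelled wild type. Both received implants of MC38-OVA, a mouse colon carcinoma line that expresses the model antigen ovalbumin, and all are given an age of 10 weeks. Clonidine, guanabenz or PBS was injected into the peritoneal cavity every day, and the tumours were taken at 7 days. The labels give no doses, and the control groups carry the treatment entry untreated although the protocol names PBS. The 3 libraries titled KO-Guanabenz (964-16, 964-17 and 964-18) also carry the treatment entry untreated, which conflicts with their titles. The titles were followed here. The genotype is that of the host, and the status of Adra2a in the implanted carcinoma cells was not examined. If those cells keep the receptor gene intact, a KO tumour is a mixture in which host cells alone lack it. Which exons the knockout removes is not stated. The labels tie no library to an animal, and the p-values therefore rest on library-to-library spread, some of which may be technical.

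Adra2a encodes the alpha2A-adrenergic receptor, which binds noradrenaline and adrenaline and couples to inhibitory G proteins that lower cyclic AMP. On sympathetic nerve endings it acts as an autoreceptor that limits further noradrenaline release, and it is also found on vascular, fat and immune cells. Clonidine and guanabenz are agonists of alpha2-adrenergic receptors. The comparison asks how a tumour differs when the host has no such receptor, whichever agent was given.

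Total counts per library ranged from 54683838 to 491137160, with a median of 92401940. After low counts were filtered, 16125 genes were tested, and the biological coefficient of variation was 0.145. On the leading principal component of log2 CPM (CPM is a gene's count scaled to a common library total), which held 20.5% of the variance, KO-Guanabenz 1 and WT-Guanabenz 3 lay at opposite ends and the genotypes were mixed. Y-linked transcripts were present (mean above 1 CPM) in 4 of 9 KO libraries and 7 of 9 WT libraries, with 0 of 3 in KO-Clonidine; host sex is not among the labels. The epithelial keratins Krt8 and Krt18 were nearly absent from these carcinoma samples. Krt8 averaged 0.246 ± 0.0989 CPM in KO and 0.201 ± 0.0867 CPM in WT tumours, and Krt18 averaged 0.102 ± 0.164 CPM in KO and 0.101 ± 0.122 CPM in WT tumours (SD, n = 9 each).

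Adra2a itself (gene 11551, chromosome 19, 54045259 to 54048982, GRCm38) was scarce. Its lowest, median and highest levels were 0.0917, 0.183 and 0.293 CPM in the KO libraries, against 0.286, 0.426 and 0.589 CPM in the WT libraries. KO-Clonidine 2 lay just above WT-Control 3, so the groups overlapped by that pair alone. The averaged log2 difference was -1.22 (SE 0.20, adjusted p = 0.016 in edgeR's quasi-likelihood test over all genes), and it was -1.20 under Control, -0.79 under Clonidine and -1.68 under Guanabenz. Reads were not gone from KO tumours: 161 counts were assigned to the gene over the 9 KO libraries and 589 over the 9 WT libraries. The WT libraries held more counts in sum, so totals of raw counts here and below overstate the difference; pooled, Adra2a stood at 0.192 CPM in KO and 0.401 CPM in WT tumours, 2.1-fold higher in WT.

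Averaged over treatments, 67 of 16125 genes passed an adjusted p under 0.05, which is 0.416% of the genes tested. Of these, 46 were higher in KO tumours (0.285%) and 21 were lower (0.13%). Changes were small, with a median size of 0.23 on the log2 scale, 52 genes under 0.4 and 7 genes at 1 or more. All 67 had the same sign under each of the 3 treatments, against 5591 of all 16125 tested genes; being called on the average of these differences favours a shared sign, and Cdc7 was at -0.003 under Control. The difference was widest under Clonidine for 53 of the 67, under Guanabenz for 12 and under Control for 2, against 7782, 5008 and 3262 of all tested genes. The called higher genes had median differences of 0.14 under Control, 0.34 under Clonidine and 0.17 under Guanabenz, and the called lower genes -0.31, -0.49 and -0.54.

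The length of the list rested on several groups. Without the Clonidine groups of both genotypes 1 gene was called (Neurl1a), and without the KO-Guanabenz libraries, whose treatment labels conflict, 2 were called. The latter fit averaged the differences under Control and Clonidine only. With total counts in place of TMM scaling 38 genes were called, 9 higher and 29 lower. With a term for Y-linked transcripts 69 were called, 41 of them among the 67. When 1 library at a time was left out, between 7 genes (without KO-Guanabenz 1) and 111 genes (without WT-Guanabenz 3) were called.

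The libraries of the genotypes did not overlap at all for 9 genes, or 0.0558% of those tested, with 3 higher and 6 lower in KO. They were Neurl1a, Pyroxd2 and Cnbd2 on the higher side and Scd3, Mfsd13a, Tlx1, Asb5, Pcyt2 and Klb on the lower side. The first 8 were also called; Klb, the co-receptor for FGF21, was not (log2 difference -0.51, SE 0.17, adjusted p = 0.14).

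Genes near Adra2a on chromosome 19 held the 3 smallest p-values of the comparison. On that chromosome 8 of 545 tested genes were called (1.47%), against 59 of 15580 elsewhere (0.379%); chromosome 10 came next with 9 of 771 (1.17%). With Adra2a set aside, 2 of 34 genes starting within 5 Mb of it were called (5.88%), 5 of 103 between 5 and 12 Mb (4.85%), and 0 of 407 farther away. The shares are given as a description and were not tested. The 12 Mb edge was not among the planned settings and lies just past Pyroxd2, the farthest called gene. With the edge there, the 0 of 407 beyond it carries no separate weight. Among the 7 neighbours, 2 were higher and 5 lower in KO. The median size of difference on the log2 scale was 0.136 for the 34 genes within 5 Mb, 0.071 for the 103 between 5 and 12 Mb and 0.078 for the 15580 genes of other chromosomes. A size over 0.5 was found for 13 of 137 genes within 12 Mb and for 663 of 15580 on other chromosomes.

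**Figure D1:**
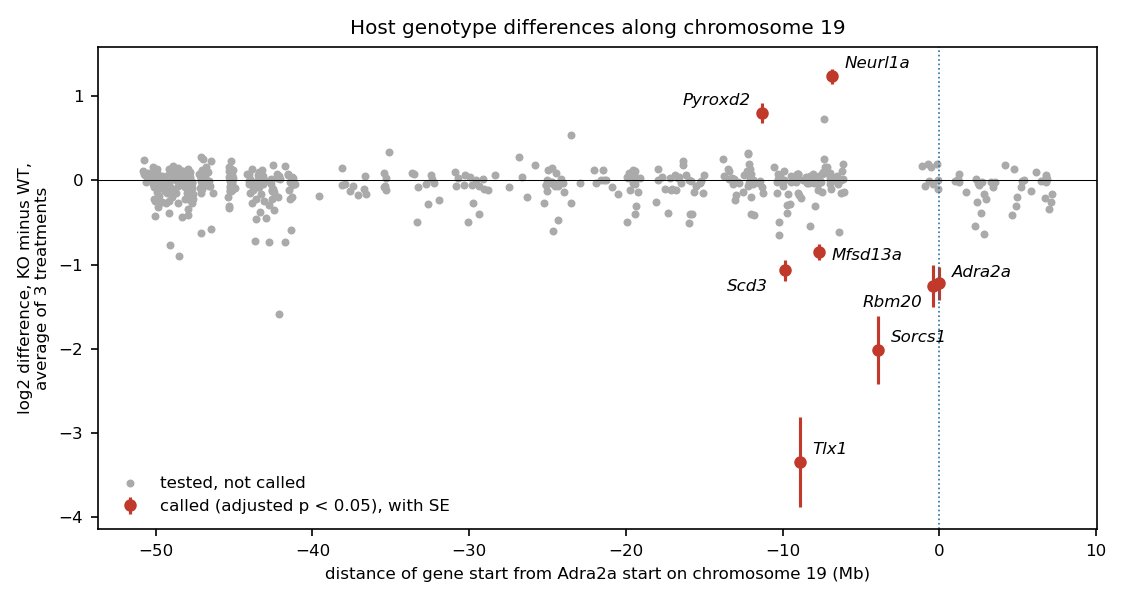
Log2 difference, KO minus WT averaged over 3 treatments (y axis), of the 545 tested genes of chromosome 19 against the distance of each gene's start from the start of Adra2a in Mb (x axis). Red points are called genes with their SE, and all 8 lie within 12 Mb of Adra2a, 2 above and 6 below 0.

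Neurl1a, an E3 ubiquitin ligase that acts on Notch ligands, had the smallest p of all genes (start 47178820, 6.87 Mb before Adra2a). Its lowest, median and highest levels were 12.7, 15.5 and 20.1 CPM in KO libraries, against 5.56, 6.53 and 8.35 CPM in WT libraries. Every KO library stood above every WT library. It rose by 1.24 on the log2 scale (SE 0.09, adjusted p = 2.6e-06), with 1.06 under Control, 1.26 under Clonidine and 1.39 under Guanabenz. It was called in all 33 alternative settings. Pyroxd2, a mitochondrial protein with an oxidoreductase domain (start 42725857), lay at 2.92, 3.65 and 5.11 CPM in KO and at 1.45, 2.03 and 2.89 CPM in WT libraries, again as lowest, median and highest. The groups touched but did not cross, with KO-Clonidine 1 lowest in KO and WT-Control 1 highest in WT, and the gene rose by 0.80 (SE 0.12, adjusted p = 0.016).

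Scd3 and Mfsd13a were the lower genes with the smallest p. Scd3, a stearoyl-CoA desaturase that places a double bond in saturated fatty acids (start 44203288), had lowest, median and highest levels of 0.446, 0.577 and 0.681 CPM in KO, against 0.690, 1.23 and 1.60 CPM in WT tumours. WT-Control 1 came within reach of the KO libraries, and the other WT libraries stood well above them. The log2 difference was -1.07 (SE 0.12, adjusted p = 0.0011), or 2.09-fold higher in WT. The neighbouring Scd2 and Scd4 did not pass, at -0.29 (SE 0.08, adjusted p = 0.11) and -0.39 (SE 0.14, adjusted p = 0.18). These genes are similar enough in sequence that kallisto may divide reads between them. Mfsd13a, a membrane protein of the major facilitator superfamily (start 46356877), lay at 1.55, 1.77 and 2.38 CPM in KO and at 2.71, 3.44 and 3.92 CPM in WT libraries. No KO library reached the WT range, and the log2 difference was -0.85 (SE 0.10, adjusted p = 0.0011).

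Tlx1, Sorcs1 and Rbm20 were called on few reads. Tlx1, a homeobox factor required to form the spleen (start 45150092), was chosen for mention after its values were seen. It had 0 counts in 5 KO libraries and at most 4 in the others, and between 4 and 55 counts in each WT library. Over all libraries that is 8 counts in KO and 138 in WT tumours, a pooled level 9.8-fold higher in WT, and the fitted log2 difference was -3.35 (SE 0.54, adjusted p = 0.016). Sorcs1, a sorting receptor of the VPS10 family (start 50143295), had 31 counts in KO and 222 in WT libraries, a pooled level 4.1-fold higher in WT; KO-Control 2, at 0.128 CPM, lay well inside the WT range of 0.0551 to 0.251 CPM and KO-Clonidine 2 at its lower edge (log2 difference -2.02, SE 0.40, adjusted p = 0.04). Rbm20, which regulates splicing of titin in muscle, starts 0.38 Mb before Adra2a. It had 91 counts in KO and 326 in WT libraries, or 2.0-fold higher in WT when pooled, with KO-Clonidine 1 inside the WT range (log2 difference -1.25, SE 0.25, adjusted p = 0.039).

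**Figure D2:**
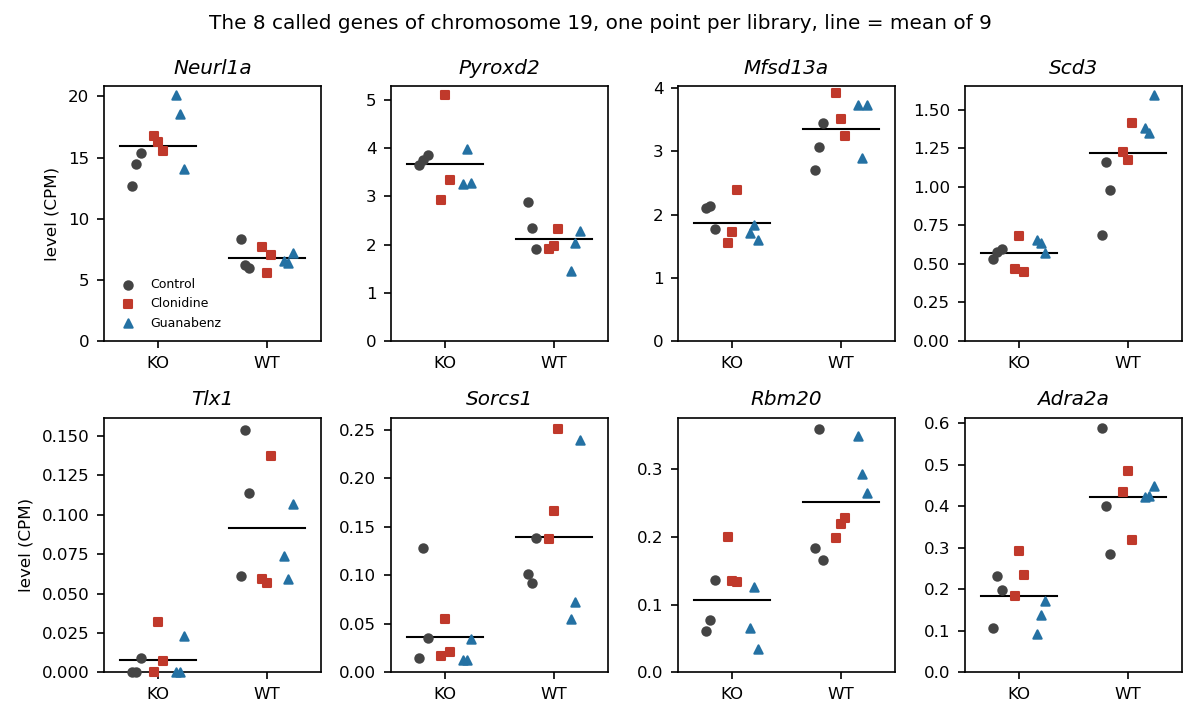
Level in CPM (y axis, from 0) of the 8 called genes of chromosome 19 in each library, KO left and WT right, with symbols for treatment and a line at the mean of 9. Neurl1a, Pyroxd2, Mfsd13a, Scd3 and Tlx1 show no overlap between genotypes, while single KO libraries reach into the WT range for Sorcs1, Rbm20 and Adra2a.

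Several other genes of the interval had small p without passing. Xpnpep1 (0.18, SE 0.04) and Pdcd4 (0.20, SE 0.04) had adjusted p of 0.05 when rounded, Itprip 0.052 (0.20, SE 0.04), Nt5c2 0.061 (0.16, SE 0.04) and As3mt 0.076 (0.25, SE 0.06). Next came Entpd7 with a negative difference (-0.14, SE 0.04, adjusted p = 0.082). Of the 8 called genes of chromosome 19, 4 were called whichever library was left out (Neurl1a, Scd3, Mfsd13a and Pyroxd2), and 7 were called with the Y-linked term, Rbm20 being the exception. Among the 59 called genes of other chromosomes 3 were called whichever library was left out (Cnbd2, Cdc7 and Csrp2) and 34 with the Y-linked term. Adra2a lost its call without KO-Guanabenz 1 (adjusted p = 0.053), as did Rasgrp4, Wdr78 and Slc39a10, described below. Over all alternatives Adra2a was called in 26 of the 31 settings in which it passed the filter. Asns was called in 5 of the 18 fits that leave out 1 library, Nr1d1 in 7, Rps6 in 5 and Sesn2 in 4, with adjusted p of at most 0.10 in the others. Without the Clonidine groups the adjusted p was 0.91 for Asns, Sesn2 and Rps6, 0.82 for Nr1d1 and 0.35 for Adra2a.

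Outside chromosome 19, Asns (asparagine synthetase) and Sesn2 (Sestrin 2, a leucine sensor that restrains mTORC1) were higher in KO tumours. Both belong to a list of 18 genes of ATF4 and the integrated stress response. ATF4 is a transcription factor whose translation rises when the initiation factor eIF2 is phosphorylated, and it switches on genes for amino acid synthesis and uptake. Asns and Trib3, a pseudokinase among ATF4's targets, are shown with the sequence around their starts because they lead the list by p and by size of difference. Capitals mark the composite element TGATGNAA, to which ATF4 binds with C/EBP proteins, searched on both strands from 250 bases before to 50 bases after each start (RefSeq, GRCm38.p6).

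Asns, chr6:7693160-7693459, minus strand: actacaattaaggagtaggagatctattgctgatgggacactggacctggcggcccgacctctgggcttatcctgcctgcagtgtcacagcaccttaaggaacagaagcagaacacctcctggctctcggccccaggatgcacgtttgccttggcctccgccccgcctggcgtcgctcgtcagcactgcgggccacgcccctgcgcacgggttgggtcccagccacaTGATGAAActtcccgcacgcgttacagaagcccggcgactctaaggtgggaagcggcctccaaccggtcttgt
Trib3, chr2:152344011-152344310, minus strand: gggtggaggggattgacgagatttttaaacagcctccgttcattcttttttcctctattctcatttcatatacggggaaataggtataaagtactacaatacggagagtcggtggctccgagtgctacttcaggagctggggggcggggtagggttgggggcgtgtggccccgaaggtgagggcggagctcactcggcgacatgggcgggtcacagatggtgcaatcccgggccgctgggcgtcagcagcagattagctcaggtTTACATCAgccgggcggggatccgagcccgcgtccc

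The Asns element lies on the gene's own strand and begins 23 bases before the start. In Trib3 the match is on the opposite strand, so it reads TTACATCA here, and it begins 14 bases after the start. The element occurred in the promoter window of 7 of 18 genes of the list (Asns, Atf3, Chac1, Nupr1, Slc7a11, Trib3 and Vldlr), in 388 of the 12684 tested genes with a promoter in the table (3.06%) and in 3.97% of all 32851 promoters. A match of letters describes these windows and does not show binding.

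Asns had lowest, median and highest levels of 97.5, 113 and 130 CPM in KO libraries, against 77.5, 91.8 and 124 CPM in WT libraries. WT-Control 1 and WT-Control 3 lay inside the KO range, and the lowest WT level was in WT-Clonidine 2. The log2 difference was 0.32 (SE 0.06, adjusted p = 0.038), with 0.11 under Control, 0.59 under Clonidine and 0.27 under Guanabenz. Sesn2 rose by 0.29 (SE 0.06, adjusted p = 0.04), at 35.5 ± 3.33 CPM in KO and 29.3 ± 5.01 CPM in WT tumours (SD, n = 9 each), with 0.02, 0.53 and 0.34 by treatment in the same order. Trib3 had the widest difference of the 3 but did not pass, at 0.46 (SE 0.10, adjusted p = 0.051). Its levels ran 36.3, 40.3 and 55.6 CPM in KO, against 20.9, 30.5 and 59.1 CPM in WT libraries, so WT-Control 3 exceeded every KO library.

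All 18 tested members of the ATF4 list had positive averaged differences, with a median of 0.16; 2 were called and 11 had an unadjusted p under 0.05. Over all tested genes the median was -0.006, 47.5% were positive, 0.416% were called and 17.4% had an unadjusted p under 0.05. The list's median was 0.01 under Control, 0.38 under Clonidine and 0.15 under Guanabenz. Called genes with related roles outside the list were Slc6a9, a glycine transporter (0.38, SE 0.06, adjusted p = 0.019), and Eif4ebp1, the translation repressor 4E-BP1 (0.30, SE 0.05, adjusted p = 0.022). The cytosolic seryl-tRNA and asparaginyl-tRNA synthetases Sars (0.23, SE 0.04, adjusted p = 0.017) and Nars (0.18, SE 0.03, adjusted p = 0.032) were also called, and were chosen for mention after their values were seen. In these 4 genes the lowest WT level was in a Clonidine library. Atf4 itself was not called (0.12, SE 0.05, adjusted p = 0.19), and the list of the ER unfolded protein response, another arm of the stress response, had 0 of 13 members called and a median of -0.10.

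**Figure D3:**
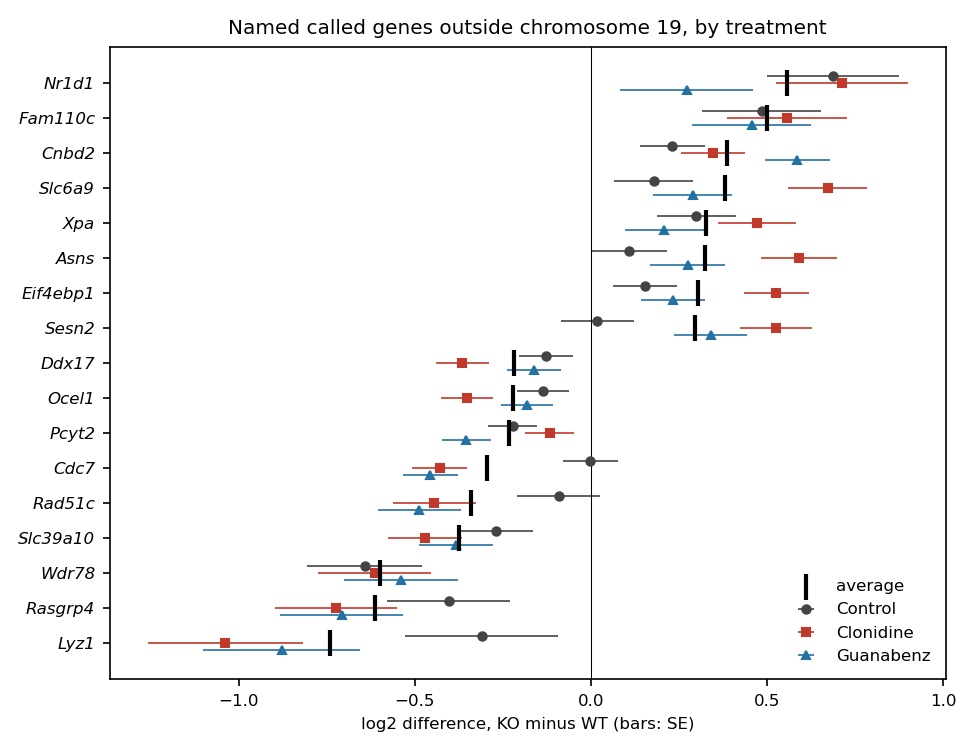
Log2 difference, KO minus WT (x axis), of the 17 named called genes outside chromosome 19, averaged (black bar) and under each treatment (points with SE). Higher genes such as Asns, Sesn2 and Slc6a9 sit farthest from 0 under Clonidine, Cnbd2 under Guanabenz, and Cdc7 is at 0 under Control.

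Cytosolic ribosomal protein genes, which encode the structural proteins of the ribosome, were the list with the most calls. Of 25 tested members, 4 were higher in KO tumours and 0 lower, and all 25 had positive differences with a median of 0.15. Over all tested genes 0.285% were called higher and 47.5% were positive. Rps6 averaged 1217 ± 102 CPM in KO and 1083 ± 81.0 CPM in WT tumours (log2 difference 0.17, SE 0.03, adjusted p = 0.037). Rps23 differed by 0.20 (SE 0.04, adjusted p = 0.04), Rpl4 by 0.18 (SE 0.04, adjusted p = 0.04) and Rps2 by 0.21 (SE 0.04, adjusted p = 0.043). The list's median was 0.08 under Control, 0.34 under Clonidine and 0.06 under Guanabenz.

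Averaged differences also fell slightly with transcript length, mostly under Clonidine. With genes split into 5 classes by length, the 3178 of the shortest class had a median difference of 0.018, and the 3175 of the longest class -0.037. By treatment, the shortest class had 0.005 under Control, 0.052 under Clonidine and 0.003 under Guanabenz. The longest class had -0.01, -0.074 and -0.012 in the same order. The shortest class held 15 of the 25 ribosomal protein genes, and the part of length in their differences was not tested. Ribosomal protein genes have many near-identical pseudogenes, between which kallisto can divide reads.

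Nr1d1, which encodes the haem-binding repressor REV-ERB alpha of the circadian clock, was the called gene of the clock list. Its lowest, median and highest levels were 21.9, 32.6 and 50.5 CPM in KO libraries, against 15.5, 24.3 and 25.7 CPM in WT libraries. KO-Control 3 was the KO library inside the WT range, and KO-Clonidine 3 was the highest. It rose by 0.56 (SE 0.11, adjusted p = 0.039), with 0.69 under Control, 0.71 under Clonidine and 0.27 under Guanabenz. Nr1d1 overlaps Thra on the opposite strand; Thra was not called (0.12, SE 0.06, adjusted p = 0.31).

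Of the 17 tested members of the clock list, Nr1d1 included, 10 had positive and 7 negative averaged differences, with a median of 0.08, and 8 had an unadjusted p under 0.05 (17.4% over all tested genes). The list's median was 0.27 under Control, 0.15 under Clonidine and -0.29 under Guanabenz. Dbp and Tef, output factors of the clock, had averaged differences of 0.50 (SE 0.16, adjusted p = 0.12) and 0.22 (SE 0.07, adjusted p = 0.14). Npas2, a partner of Bmal1, had -0.80 (SE 0.28, adjusted p = 0.17).

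Per2, a repressor of the clock, was the single gene of 16125 (0.0062%) called in the test of genotype by treatment. That test, with 2 degrees of freedom, asked whether the KO minus WT difference varied with treatment (adjusted p = 0.025 in edgeR). Genes that did not pass may vary too. For Per2 the difference was 0.86 under Control, -0.06 under Clonidine and -1.06 under Guanabenz, and the average of -0.09 (SE 0.09) was not called. Under Control, Per2 lay at 8.38, 10.1 and 8.49 CPM in KO, against 6.38, 4.68 and 3.83 CPM in WT libraries. Under Clonidine it lay at 8.84, 7.09 and 8.24 CPM in KO, against 8.72, 6.97 and 9.57 CPM in WT libraries. Under Guanabenz it lay at 4.89, 5.74 and 5.09 CPM in KO, against 10.2, 11.7 and 10.8 CPM in WT libraries. The genotypes thus did not overlap under Control or Guanabenz, in opposite directions, and were mixed under Clonidine. The Guanabenz contrast uses the 3 libraries with conflicting labels. Without them only the Control and Clonidine differences were compared, and no gene was called (smallest adjusted p = 0.14, with edgeR). The time of day at collection is not stated.

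**Figure D4:**
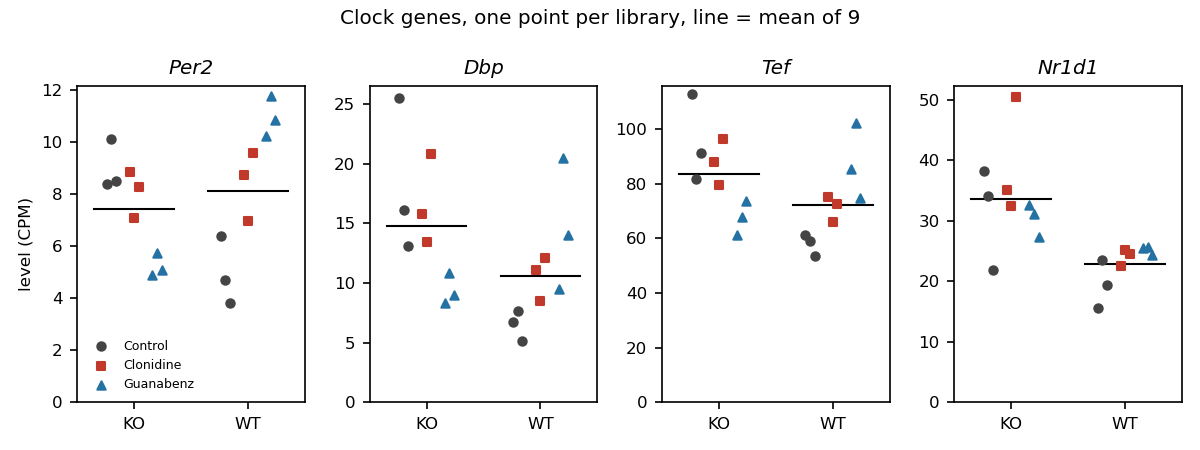
Level in CPM (y axis, from 0) of Per2, Dbp, Tef and Nr1d1 in each library, KO left and WT right, with symbols for treatment and a line at the mean of 9. The 3 Guanabenz libraries hold the lowest Per2 levels of KO and the highest of WT, while the Nr1d1 mean is higher in KO.

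Outside chromosome 19, Lyz1 and Rasgrp4 were among the lower genes. Lyz1 encodes a lysozyme best known from Paneth cells of the gut. Its lowest, median and highest levels were 2.60, 5.13 and 7.91 CPM in KO libraries, against 7.14, 8.09 and 10.7 CPM in WT libraries. KO-Control 1 was the single KO library inside the WT range, and Lyz1 fell by 0.74 on the log2 scale (SE 0.13, adjusted p = 0.019). Its near copy Lyz2, the macrophage lysozyme, was not called, at 2356 ± 238 CPM in KO and 2542 ± 251 CPM in WT tumours (log2 difference -0.11, SE 0.06, adjusted p = 0.39), and reads of the pair may be divided between them. Rasgrp4, a Ras activator of mast cells and other myeloid cells, lay at 4.41, 5.62 and 8.57 CPM in KO and at 6.13, 9.79 and 12.3 CPM in WT libraries. KO-Clonidine 2 was the highest KO library and WT-Control 1 the lowest WT library, and the gene fell by 0.61 (SE 0.10, adjusted p = 0.017).

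Cdc7 and Rad51c, which act on DNA, were also lower. Cdc7, the kinase that fires replication origins, lay at 24.3, 29.0 and 31.3 CPM in KO libraries, against 28.1, 36.7 and 40.2 CPM in WT libraries. It fell by 0.30 (SE 0.05, adjusted p = 0.016), with -0.003 under Control, -0.43 under Clonidine and -0.46 under Guanabenz. Rad51c, of homologous recombination, fell by 0.34 (SE 0.07, adjusted p = 0.039). The cell cycle list as a whole had 0 of 20 members called (0.416% over all tested genes), 11 positive and 9 negative, with a median of 0.02.

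The remaining named lower genes outside chromosome 19 were Wdr78, a component of ciliary dynein (-0.60, SE 0.09, adjusted p = 0.016), and Slc39a10, a zinc importer. Slc39a10 averaged 50.3 ± 4.02 CPM in KO and 65.5 ± 10.1 CPM in WT tumours (SD, n = 9 each), and its log2 difference was -0.37 (SE 0.06, adjusted p = 0.016). Pcyt2, which makes a precursor of phosphatidylethanolamine, lay at 32.7, 36.6 and 38.3 CPM in KO libraries, against 38.4, 42.2 and 48.8 CPM in WT libraries. Its groups came close but did not cross (log2 difference -0.23, SE 0.04, adjusted p = 0.022). Ocel1 (-0.22, SE 0.04, adjusted p = 0.038) and the RNA helicase Ddx17 (-0.22, SE 0.04, adjusted p = 0.04) completed the named set. Asb5 and Aqp4, chosen for mention after their values were seen, were called at low levels. Asb5, a gene of the ankyrin and SOCS box family, had 763 counts in KO and 2362 in WT libraries, or 1.8-fold higher in WT when pooled (-0.77, SE 0.13, adjusted p = 0.017). Aqp4, a water channel, had 53 counts in KO and 221 in WT libraries, or 2.4-fold higher in WT when pooled (-1.44, SE 0.28, adjusted p = 0.039).

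Among the higher genes not yet described, Cnbd2, a protein with a cyclic nucleotide-binding domain, was the clearest. Its lowest, median and highest levels were 17.4, 20.0 and 24.1 CPM in KO libraries, against 13.7, 15.6 and 16.4 CPM in WT libraries. No WT library reached the KO range, and it rose by 0.39 (SE 0.05, adjusted p = 0.0063), with 0.23 under Control, 0.35 under Clonidine and 0.59 under Guanabenz. Fam110c, a protein of centrosomes and spindle poles, lay between 9.33 and 14.9 CPM in KO libraries and between 5.88 and 11.6 CPM in WT libraries, and it rose by 0.50 (SE 0.10, adjusted p = 0.039). Xpa, which recognises damage in nucleotide excision repair, rose by 0.33 (SE 0.06, adjusted p = 0.039). Further called genes, chosen after their values were seen, were Sqstm1, the autophagy receptor p62 (0.27, SE 0.05, adjusted p = 0.032), Fgfr1, a fibroblast growth factor receptor (0.20, SE 0.04, adjusted p = 0.04), and Csrp2, a LIM protein of muscle and stellate cells (0.25, SE 0.04, adjusted p = 0.016).

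Lists of metabolism gave one-sided signs with no call, against 0.416% called over all tested genes. All 18 members of the hypoxia and glycolysis list were positive, with a median of 0.27, and 8 had an unadjusted p under 0.05. The medians by treatment were 0.06 under Control, 0.65 under Clonidine and 0.15 under Guanabenz. Pgk1, a glycolytic kinase, had 0.26 (SE 0.09, adjusted p = 0.17). All 16 members of the cholesterol and fatty acid synthesis list were negative, with a median of -0.15 and 6 at an unadjusted p under 0.05. Its median was -0.09 under Control, -0.09 under Clonidine and -0.24 under Guanabenz. Elovl6, which lengthens saturated fatty acids, had -0.31 (SE 0.08, adjusted p = 0.077). Oxidative phosphorylation genes were positive in 19 of 20, with a median of 0.07.

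No immune list had a called member, against 0.416% called over all tested genes. At that share, lists this short would mostly hold none. The averages of lymphoid lists hid unlike values by treatment. The T cell list had 17 of 19 members negative, with a median of -0.16, made of 0.10 under Control, -0.74 under Clonidine and 0.24 under Guanabenz. Without the Clonidine groups its median was 0.18, and in libraries with Y-linked transcripts alone it was 0.24. No KO-Clonidine library had those transcripts above the mean of 1 CPM, so the second value also leaves out the Clonidine difference. Cd5, a receptor that tunes T cell receptor signalling, had the smallest p of the list (-0.38, SE 0.14, adjusted p = 0.19). The regulatory T cell list had 9 of 10 members negative, with a median of -0.35 (0.02, -0.91 and -0.19 by treatment) and 8 at an unadjusted p under 0.05. Ctla4, an inhibitory receptor of these cells, had -0.59 (SE 0.20, adjusted p = 0.15) and Foxp3, their defining factor, -0.41 (SE 0.17, adjusted p = 0.22). In bulk tumours, fewer cells of a type and less RNA per cell cannot be told apart.

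Cytotoxic and NK cell genes were negative in 14 of 16 (median -0.11), and without the Clonidine groups the median was 0.08. MHC class II genes were negative in 8 of 9 (median -0.11), made of -0.13 under Control, -0.68 under Clonidine and 0.34 under Guanabenz. MHC class I and processing genes were positive in 11 of 11 (median 0.10), and positive at the median under each treatment. Of those, Psmb8, an immunoproteasome subunit, had 0.17 (SE 0.05, adjusted p = 0.13). Interferon gamma response genes were negative in 14 of 18 (median -0.15), led by Iigp1, an interferon-inducible GTPase (-0.34, SE 0.08, adjusted p = 0.058). Their medians were -0.06 under Control, -0.40 under Clonidine and 0.04 under Guanabenz. Dendritic cell genes were negative in 9 of 11 (median -0.30), with -0.03, -0.49 and -0.195 in the same order of treatments. Macrophage and monocyte genes were split 9 and 9 with a median of -0.007. Mast cell and eosinophil genes were negative in 10 of 10 (median -0.24), although their median was 0.55 under Control.

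**Figure D5:**
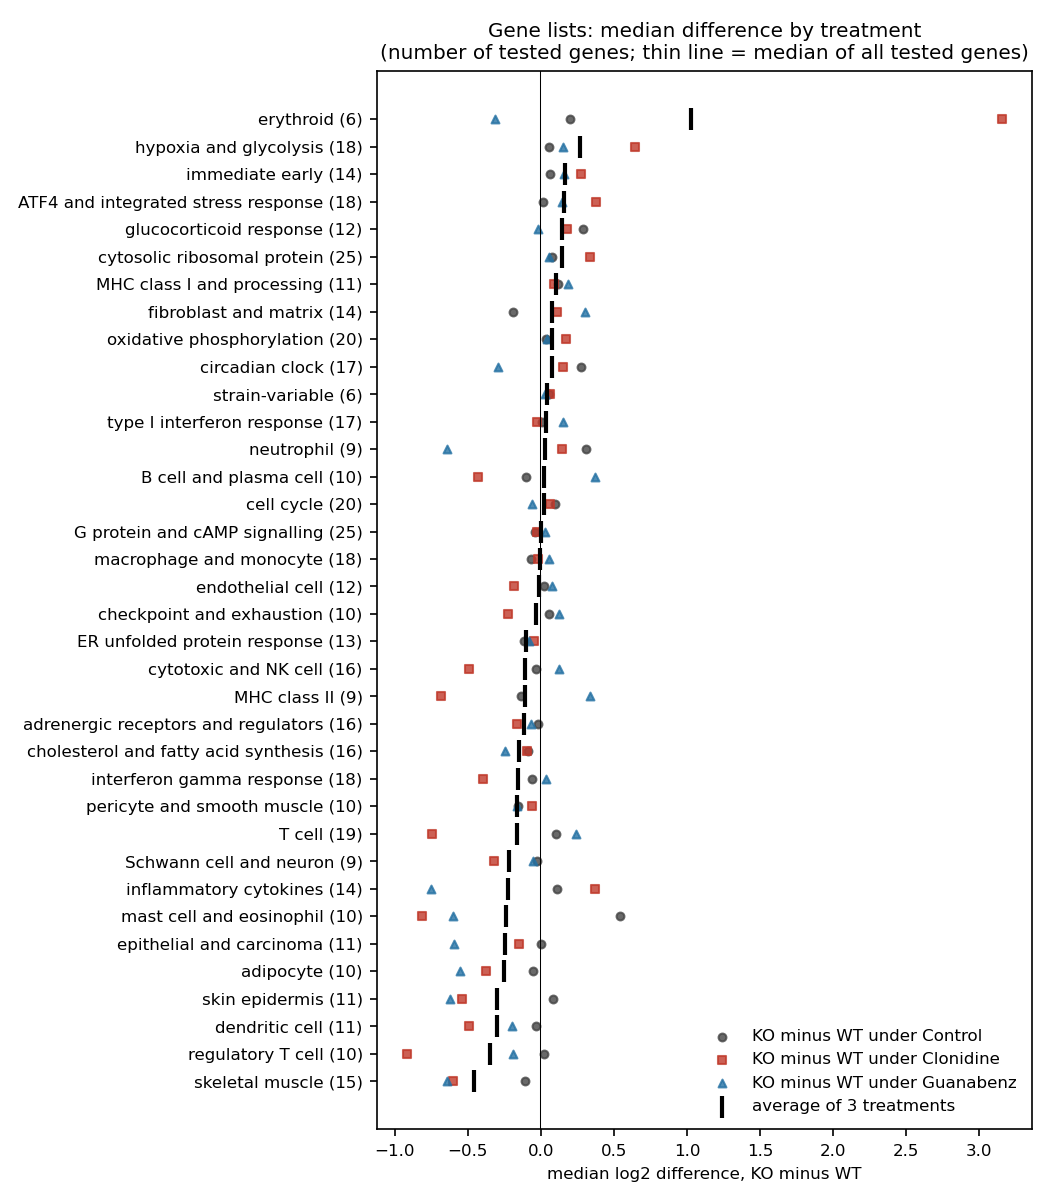
Median log2 difference, KO minus WT (x axis), of the tested genes of each list other than the Y-linked one, averaged over treatments (black bar) and under Control, Clonidine and Guanabenz (points). Among the lists drawn, erythroid genes show the widest spread between treatments, followed by mast cell and eosinophil, inflammatory cytokine and MHC class II genes. Skeletal muscle genes are negative under all 3, as are several other lists, such as cholesterol and fatty acid synthesis and dendritic cell genes.

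Genes of other tissues in the tumour samples differed between libraries without a call (0.416% of all tested genes were called). All 15 skeletal muscle genes had negative differences, with a median of -0.45, and 10 were negative under each treatment. Their summed level ran from 72.0 to 307 CPM in KO libraries (median 214) and from 189 to 390 CPM in WT libraries (median 280). Ttn, the titin gene, had -1.19 (SE 0.30, adjusted p = 0.079). Rbm20 and Asb5, called above, are expressed in muscle, and the part of muscle tissue in their differences was not tested. Skin epidermis genes were negative in 11 of 11 (median -0.30), with medians of 0.08 under Control, -0.54 under Clonidine and -0.62 under Guanabenz. Their summed level did not follow: it ran from 43.2 to 228 CPM in KO libraries (median 193) and from 139 to 347 CPM in WT libraries (median 159).

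Erythroid genes, which mark red blood cells and their precursors, were positive in 6 of 6 with the highest list median, 1.03. That average came from 3.16 under Clonidine, against 0.20 under Control and -0.31 under Guanabenz. The summed level ran from 77.4 to 1627 CPM in KO and from 90.2 to 556 CPM in WT libraries, and the median was -0.06 without the Clonidine groups. Pericyte and smooth muscle genes were negative in 8 of 10 (median -0.16), with Notch3 (-0.28, SE 0.07, adjusted p = 0.058) and Myh11 (-0.44, SE 0.10, adjusted p = 0.061) nearest to a call. Fibroblast and matrix genes were positive in 11 of 14 (median 0.08), and endothelial genes were split 6 and 6.

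Other genes of adrenergic signalling were not called (0.416% of all tested genes were). In a list of 16 tested adrenergic receptors and regulators, without Adra2a, 14 were negative and 2 positive, with a median of -0.12. Maoa, the monoamine oxidase that breaks down noradrenaline, was nearest to a call: its levels ran 46.3, 51.5 and 54.9 CPM in KO libraries, against 39.4, 43.3 and 50.5 CPM in WT libraries, and the log2 difference was 0.20 (SE 0.04, adjusted p = 0.051). Adrb3, the beta3-adrenergic receptor of fat, had -0.45 (SE 0.14, adjusted p = 0.12). The 25 genes of G protein and cyclic AMP signalling had 15 positive and 10 negative differences with a median of 0.005, and the smallest adjusted p among them was 0.11 (Adcy4, an adenylyl cyclase, -0.31, SE 0.09).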

How the data were processed

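The values are estimated counts per gene, deposited by the authors after steps for which the submitters' processing notes name Trim Galore 0.6.5, kallisto 0.46.0 and the GRCm38 build. All values are whole numbers and were not rounded further. How transcripts were summed to genes, and whether strand was used, is not stated, so overlapping or near-identical genes (Scd, Lyz and ribosomal protein genes among those named) are uncertain.

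Of 21015 gene identifiers, 20994 matched a RefSeq GRCm38.p6 symbol; the other 21 held at most 0.022% of the counts of any library. In edgeR 4.0.16 (R 4.3.3), 16125 genes passed filterByExpr. Libraries were scaled by TMM and fitted with 6 group means, and 2-sided quasi-likelihood F tests were made of the averaged KO minus WT difference and of its equality over treatments (12 residual and 4.35 prior degrees of freedom). Adjusted p under 0.05 (Benjamini-Hochberg over all tested genes) counted as a call. Levels are CPM with the SD between libraries. At these depths counting error is small beside the spread between libraries, except for genes given as raw counts. The code was tested on simulated data.

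Named genes were Adra2a; 10 higher and 10 lower calls by size of difference, given one sign under all treatments and a log2 CPM averaging 1 or more; the 6 called genes with the smallest p; key genes; up to 3 members of each of 37 gene lists; the 3 smallest p for genotype by treatment; and called genes within 5 Mb of Adra2a. The members, lists and rule were chosen with earlier results of these data known. Alternatives were RLE and total-count scaling, DESeq2 1.42.0, voom with quality weights (limma 3.58.1), 2 low-count filters, the replicate number as a block, Y-linked transcripts as a term or a selection, KO-Guanabenz left out or read as KO-Control, 2 simpler models and omission of each library. Omission of the Clonidine or the Control groups was chosen after seeing the data.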

Additional observations from a re-analysis of the deposited data

Results flagged for a closer look

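Per2, a repressor of the circadian clock, was flagged because its KO minus WT difference varied between treatments by a test of the difference itself (adjusted p = 0.025 in edgeR, 2 degrees of freedom). The difference was 0.86 under Control, -0.06 under Clonidine and -1.06 under Guanabenz on the log2 scale. Of the 16125 genes tested, 1295 had an unadjusted p under 0.05 in this test, and Per2 alone passed. When 1 library at a time was left out, the smallest adjusted p of any gene ran from 0.0018 (without WT-Control 1) to 0.15 (without KO-Guanabenz 1 or WT-Control 2). It lay above 0.05 without any one of the KO-Control libraries, the KO-Guanabenz libraries, the WT-Guanabenz libraries, WT-Control 2 or WT-Clonidine 1. With DESeq2, 59 genes passed, Per2 among them. Clock genes vary over the day, the time of collection is not stated, and its part was not tested.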

How the results depend on the processing

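For the averaged difference (67 genes called, 46 higher and 21 lower), DESeq2 called 618 and voom with quality weights 362, which held 62 and 67 of the 67. Total-count scaling called 38 (9 higher and 29 lower), and it moved the median of all genes by less than 0.1 on the log2 scale. An additive model called 11, genotype alone 8, libraries with Y-linked transcripts alone 6, KO-Guanabenz read as KO-Control 3, no KO-Guanabenz 2, no Clonidine groups 1 and no Control groups 130. Libraries with Y-linked transcripts gave differences under Control and Guanabenz only, and both KO-Guanabenz settings under Control and Clonidine only. The same holds for these settings in the test of genotype by treatment below. RLE scaling called 61, no filter 55, a stricter filter 47 and the Y-linked term 69. Leaving out 1 library gave from 7 to 111 calls, and the count moved by more than 1.5 times without KO-Control 1 (41), KO-Control 2 (36), KO-Clonidine 1 (32), KO-Clonidine 3 (15), KO-Guanabenz 1 (7), KO-Guanabenz 2 (30), WT-Control 2 (20), WT-Clonidine 1 (26), WT-Clonidine 2 (23), WT-Clonidine 3 (15), WT-Guanabenz 2 (25) or WT-Guanabenz 3 (111). For genotype by treatment (1 gene called), DESeq2 called 59 and voom 4, and 0 were called with the Y-linked term (smallest adjusted p = 0.067), in libraries with Y-linked transcripts (0.087), without KO-Guanabenz (0.14), with it read as KO-Control (0.20) or without the Control groups (0.16), by edgeR; leaving out 1 library gave 0 or 1. No named value changed sign past a threshold, and the 67 called genes kept their sign in each of the 33 settings in which they passed the filter. The causes were not tested. Same-numbered libraries of different groups share only a number: of 45 such pairs, 10 had a correlation of deviations over 0.1, and 36 of 90 comparisons were best with the own number. In each comparison the own number was 1 of 3 choices. With the replicate block, 60 genes were called for the averaged difference, 47 of them among the 67, and 0 for genotype by treatment (smallest adjusted p = 0.10). List medians that changed sign without the Clonidine groups included T cell (0.18), cytotoxic and NK cell (0.08), MHC class II (0.08) and erythroid (-0.06). Depth limits Tlx1, Sorcs1, Rbm20, Aqp4 and Adra2a, which had few counts.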

Other observations

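Lists not described above held no called gene (0.416% of all tested genes were called). Immediate early genes, which respond within minutes to growth and stress signals, were positive in 12 of 14 with a median of 0.16. Egr1, a zinc finger factor of that list, lay at 43.8, 54.9 and 65.2 CPM (lowest, median and highest) in KO libraries and at 33.1, 42.7 and 58.1 CPM in WT libraries (0.33, SE 0.08, adjusted p = 0.058). Jun, a subunit of AP-1, had 0.19 (SE 0.05, adjusted p = 0.069) and Egr3 0.79 (SE 0.21, adjusted p = 0.081), with 1.29 under Guanabenz. Glucocorticoid response genes were positive in 9 of 12 with a median of 0.15, and Sgk1, a kinase that steroid hormones induce, had 0.26 (SE 0.07, adjusted p = 0.095). Cd22, an inhibitory receptor of B cells, had 0.33 (SE 0.08, adjusted p = 0.079) while B cell and plasma cell genes were split 5 and 5.

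Inflammatory cytokine genes had a median of -0.22, made of 0.11 under Control, 0.37 under Clonidine and -0.75 under Guanabenz. Neutrophil genes had medians of 0.31, 0.14 and -0.64 in the same order of treatments. Adipocyte genes were negative in 9 of 10 (median -0.25), checkpoint and exhaustion genes in 7 of 10 (-0.03), and Schwann cell and neuron genes in 7 of 9 (-0.21). Epithelial and carcinoma genes were negative in 8 of 11 (-0.24). Type I interferon response genes were positive in 12 of 17 (median 0.03, and -0.01 with total-count scaling). A list of 6 genes known to vary between mouse strains had a median of 0.04 (-0.001 with total-count scaling), with Wdfy1 at 0.24 (SE 0.11, adjusted p = 0.29). The 4 genes of the Y-linked list, of 5 tested on chromosome Y, were all negative (median -1.18), made of -0.15 under Control, -4.61 under Clonidine and 1.25 under Guanabenz.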
